A study of Mus musculus with 6 samples.

Results

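The circadian clock genes described here were Arntl, Npas2, Clock, Per1, Per2, Per3, Cry1, Nr1d1, Dbp and Tef, taken by symbol from the gene list of each count matrix. These 10 genes were among the 30406 genes listed in all 6 matrices. RNA of single nuclei was measured from the periosteum, the sheet of tissue around the bone, of uninjured tibias of C57BL6 mice (C57BL/6ScNj), and from the periosteum and callus after tibial fracture. There were 2 libraries of uninjured tissue, each pooled from 4 mice, 2 libraries at day 3 after fracture, 1 at day 5 and 1 at day 7, with 4 to 9 mice pooled after fracture. The hour of the day at which tissue was collected was not stated for any library.

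The circadian clock is a loop of transcription that turns about once a day in most tissues, bone and muscle included. BMAL1, the product of Arntl, pairs with CLOCK or NPAS2 and activates the Per and Cry genes, Nr1d1, and Dbp and its relative Tef; PER and CRY proteins then repress that activity, and REV-ERBα, the product of Nr1d1, represses Arntl. The levels of these genes therefore depend on the hour of collection, and glucocorticoids and serum can also reset them.

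On the mouse genome build GRCm38, the activator Arntl (ENSMUSG00000055116) lay at chr7:113207465-113314126 on the plus strand. Its partners lay at chr1:39193731-39363236 (Npas2, ENSMUSG00000026077, plus) and chr5:76209868-76304792 (Clock, ENSMUSG00000029238, minus). The repressors of the PER and CRY families lay at chr11:69095217-69109960 (Per1, ENSMUSG00000020893, plus), chr1:91415982-91459324 (Per2, ENSMUSG00000055866, minus), chr4:151003652-151044665 (Per3, ENSMUSG00000028957, minus) and chr10:85131700-85185064 (Cry1, ENSMUSG00000020038, minus). Nr1d1 (ENSMUSG00000020889, minus) lay at chr11:98767932-98775333, Dbp (ENSMUSG00000059824, plus) at chr7:45705088-45710203 and Tef (ENSMUSG00000022389, plus) at chr15:81802421-81826863. Per3 lay wholly inside Camta1, a gene on the same strand, sharing 41014 bases with it. Nr1d1 shared 1075 bases with Thra and Dbp 737 bases with Sphk2, each on the opposite strand.

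The matrices held 13551 barcodes and 55293921 unique molecular identifiers (UMIs), from 1499281 UMIs in uninjured replicate 1 to 29796296 in day 3 replicate 2. After limits on genes and mitochondrial and ribosomal RNA, 8073 nuclei were kept, from 644 in uninjured replicate 1 to 2423 at day 5. Levels are given as CPM, the UMIs of a gene scaled to 1000000 UMIs summed over the nuclei of one population in one library, with an exact Poisson 95% interval that covers counting error only. Libraries shared 18 barcodes, of which 7 were shared by day 3 replicate 2 and day 5.

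Clusters were named from marker genes, with the clock genes kept out of the genes used for clustering. Stromal nuclei, the union of those like skeletal stem and progenitor cells, fibroblasts, injury-induced fibrogenic cells, osteoblasts and chondrocytes, numbered 128 and 368 in uninjured replicates 1 and 2, 136 and 264 in day 3 replicates 1 and 2, 1117 in the day 5 library and 745 in the day 7 library. Endothelial-like nuclei numbered 211, 254, 39, 64, 242 and 78 in the same order, and myogenic-like nuclei, which carried muscle markers, 161, 249, 383, 466, 275 and 247. The make-up of the stromal nuclei moved with the groups: fibroblast-like nuclei made up 63.3 and 41.0% of them in uninjured tissue, 29.4 and 29.5% on day 3, 20.3% by day 5 and 16.9% by day 7. Fibrogenic-like nuclei were 14.8 and 34.8% in uninjured tissue and 63.2 and 55.7% at day 3, and chondrocyte-like nuclei were 12.2% at day 5 and 31.1% at day 7. The fibrogenic-like shares are not those of one cluster. In uninjured replicate 2, 85 of 128 such nuclei came from a cluster with Alpl and Fat3 among its top genes, and most of those after fracture came from 2 other clusters. With clusters made at resolution 0.8 that library held 47 fibrogenic-like and 71 osteoblast-like nuclei, in place of 128 and 22. Values for fibroblast-like nuclei alone are given as an alternative for day 3, and the part of this make-up in the clock gene levels was not tested otherwise.

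Libraries stood apart in ways that crossed the groups. Both uninjured libraries and day 3 replicate 2 listed 31055 genes, while day 3 replicate 1 and day 7 listed 32285 and day 5 listed 32287. Cell Ranger 6.0.0 made the counts of uninjured replicate 1, day 5 and day 7, and 7.1.0 those of the other 3 libraries. Mitochondrial UMIs averaged 0.548 and 0.496% per stromal nucleus in uninjured replicate 2 and day 3 replicate 2, against 0.044% in uninjured replicate 1, 0.019% in day 3 replicate 1, 0.018% on day 5 and 0.007% on day 7. The study used groups of mixed sex and gave no count of males or females per pool. Xist, the RNA of the inactive X chromosome, stood at 1.27 CPM in stromal nuclei of uninjured replicate 2 and at 1231, 359.8, 1551, 1957 and 1207 CPM in uninjured replicate 1, both day 3 replicates, day 5 and day 7. The Y-linked gene Uty stood at 0.553 CPM in day 3 replicate 2 and at 69.4 to 296 CPM in the other 5 libraries. None of these differences was tested for its part in the clock gene levels, and nothing in the labels said that the pools of mice were independent, so p-values measure the spread between these libraries alone.

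The clock genes differed between replicate libraries of one group before any comparison of groups. Arntl and Per3 lay apart in opposite directions in both pairs of replicates, and did so in stromal, endothelial-like and myogenic-like nuclei alike. These differences are on the scale of log2(CPM + 5), replicate 2 minus replicate 1. For Arntl, which encodes the activator BMAL1, they were −2.92 in stromal, −0.93 in endothelial-like and −2.53 in myogenic-like nuclei of the uninjured pair. At day 3 the same gene differed by −1.78, −1.73 and −0.63. Arntl was thus lower in replicate 2 in each of the 3 populations in both groups. For Per3, a PER-family gene, the differences were 1.48, 1.95 and 2.03 in the uninjured pair and 4.16, 3.56 and 2.19 at day 3. Per3 was the 1 member of 9 with a mean of at least 20 CPM that was higher by over 2-fold in replicate 2 in each of the 3 populations, in the uninjured pair, where 0.663% of 7087 genes were, and again at day 3, where 3.08% were. For lower in each, the count was 0 of 9 in both groups, where 0.466% of genes were in the uninjured pair and 0.974% at day 3. Dbp, an output gene, was also higher in replicate 2 of both groups, by 1.82, 1.67 and 3.48 in the uninjured pair and 2.00, 1.38 and 0.89 at day 3.

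The replicates in which Arntl was low and Per3 and Dbp were high, uninjured replicate 2 and day 3 replicate 2, were those with the higher share of mitochondrial UMIs. Their part in these differences was not tested. In stromal nuclei Per3 stood higher in the 3 libraries that listed 31055 genes, at 56.4, 166 and 84.7 CPM, than in day 3 replicate 1, day 5 and day 7, at 0 (interval 0 to 8.51), 11.2 and 23.6 CPM. In myogenic-like nuclei it stood at 31.3, 143 and 92.2 CPM in those 3 libraries and at 16.3, 38.7 and 40.6 CPM in the others, so uninjured replicate 1 lay below days 5 and 7 there. The endothelial-like values were 21.4, 97.2 and 53.9 CPM against 0, 12.4 and 15.9 CPM. Camta1, the gene that contains Per3, stood at 139, 112, 148, 111, 103 and 162 CPM in stromal nuclei of uninjured replicates 1 and 2, day 3 replicates 1 and 2, day 5 and day 7. Gene list and time cannot be told apart for Per3 at days 5 and 7, and at day 3 each replicate had its own list.

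**Figure D1:**
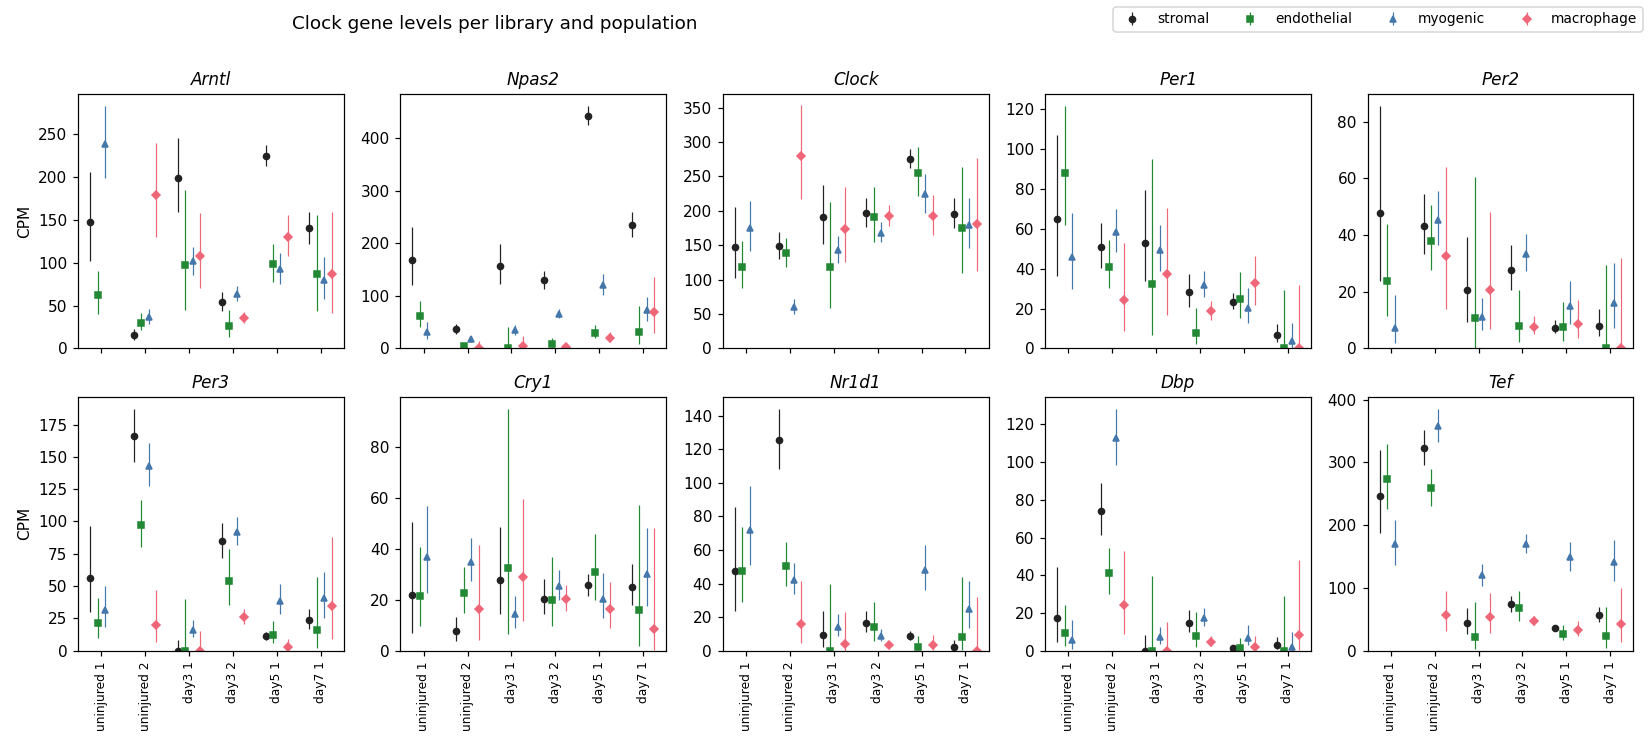
Level of each of the 10 clock genes (vertical axis, CPM, linear and different for each gene) in the 6 libraries (horizontal axis) for stromal, endothelial-like, myogenic-like and macrophage-like nuclei. Points are UMI sums over the nuclei of one population in one library, bars are exact Poisson 95% intervals, and macrophage-like nuclei of uninjured replicate 1 are not drawn because there were 11 of them. Tef stood above 240 CPM in stromal and endothelial-like nuclei of both uninjured libraries and under 75 CPM in those of all 4 fracture libraries.

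At day 3 after fracture, 1 repressor gene and 1 output gene of the clock passed the test in stromal nuclei, both lower, and the other 8 members did not pass it. Nr1d1, the gene of the repressor REV-ERBα, and Tef, a PAR bZIP factor driven by the clock, fell in stromal nuclei, with means of 86.5 ± 54.9 CPM (SD, n = 2) in uninjured tissue and 12.9 ± 5.22 CPM (SD, n = 2) at day 3 for Nr1d1. Tef went from 285 ± 53.5 CPM to 59.0 ± 21.5 CPM (SD, n = 2 each). By edgeR's quasi-likelihood test with adjusted p under 0.05, 2 of 10 members were called lower, where 5.08% of the 9903 genes tested were. The count of members called higher was 0 of 10 by edgeR, where 4.09% of all genes were. Of the 10 members, 3 had an unadjusted p under 0.05 in edgeR, where 22.2% of all genes did. DESeq2 called the same count of 2, again Nr1d1 and Tef, where it called 7.85% of all genes.

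In stromal nuclei Tef stood at 247 CPM (interval 187 to 320) and 323 CPM (295 to 352) in the uninjured libraries and at 43.8 CPM (26.4 to 68.4) and 74.2 CPM (62.1 to 87.8) at day 3. Both day 3 libraries lay below both uninjured ones, with no overlap of the intervals. The log2 fold change was −2.30 (SE 0.35, edgeR's quasi-likelihood test, adjusted p 0.00571), and Tef was lower in 2 of 2 day 3 libraries. Tef kept an adjusted p under 0.05 in edgeR's test when any one of the 4 libraries was left out, but stood at −1.68 with an adjusted p of 0.113 when clusters were made at resolution 0.8. In fibroblast-like nuclei alone, 1 of 8 members tested was called by edgeR, and it was Tef, where 5.35% of 6377 genes were called.

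For Nr1d1 the stromal values were 47.7 CPM (23.8 to 85.3) and 125 CPM (108 to 144) in uninjured tissue and 9.23 CPM (2.51 to 23.6) and 16.6 CPM (11.2 to 23.7) at day 3. Again both day 3 libraries were the lower ones. The log2 fold change was −2.79 (SE 0.56, edgeR's quasi-likelihood test, adjusted p 0.0161). Without uninjured replicate 2 it was −1.89 with an adjusted p of 0.252 in edgeR's test, and in fibroblast-like nuclei alone −2.53 with an adjusted p of 0.134. Thra, which shares 1075 bases with Nr1d1 on the opposite strand, also stood lower in stromal nuclei at day 3. It was at 208 and 157 CPM in uninjured tissue and at 32.3 and 93.5 CPM at day 3. The part of this overlap in the Nr1d1 values was not tested. Dbp, the third member that passed an unadjusted p under 0.05, stood at 17.3 (4.73 to 44.4) and 74.1 CPM (61.2 to 88.7) in uninjured tissue and at 0 CPM (0 to 8.51) and 14.9 CPM (9.85 to 21.7) at day 3. Its day 3 libraries lay below the uninjured ones, though the intervals of the nearest pair overlapped. Its log2 fold change was −2.48 (SE 0.85, edgeR's quasi-likelihood test, adjusted p 0.113). Without day 3 replicate 1, and so within the 31055-gene list, Dbp had an adjusted p of 0.0407 by edgeR, and without day 3 replicate 2 it had 0.0155. It had 0.0738 by edgeR without uninjured replicate 1, and without uninjured replicate 2 it did not pass the filter on low counts.

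Among the PER and CRY repressors in stromal nuclei, Per2 stood at 47.7 and 43.0 CPM in uninjured tissue and 20.8 and 27.7 CPM at day 3, with a log2 fold change of −0.90 (SE 0.48, edgeR's quasi-likelihood test, adjusted p 0.318). Its groups did not overlap, but it did not pass the test. Per1 stood at 65.0 and 50.6 against 53.0 and 28.2 CPM, and Cry1 at 21.7 and 7.60 against 27.7 and 20.5 CPM, so both overlapped. Their log2 fold changes were −0.53 (SE 0.53) and 1.01 (SE 0.74), and that of Per1 was 0.06 without day 3 replicate 2. That of Cry1 was 1.55 and 0.05 without uninjured replicates 1 and 2, and 0.58 without day 3 replicate 1. Per3, at 56.4 and 166 against 0 and 84.7 CPM, had a log2 fold change of −1.42 (SE 0.90, edgeR's quasi-likelihood test, adjusted p 0.411). Without day 3 replicate 2 it was called by edgeR, with an adjusted p of 0.00201, and that comparison set a library of 32285 listed genes against 2 of 31055. Without uninjured replicate 2 the log2 fold change was −0.41, and without day 3 replicate 1 it was −0.72, neither of them called by edgeR.

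The activators spread as widely within a group as between groups, apart from Clock. Arntl stood at 147 CPM (102 to 206) and 15.2 CPM (9.73 to 22.6) in uninjured stromal nuclei and at 198 CPM (159 to 245) and 54.2 CPM (44.0 to 66.1) at day 3. The groups overlapped, and each held 1 high and 1 low library. The log2 fold change was 0.92 (SE 0.98, edgeR's quasi-likelihood test, adjusted p 0.661), and it was 3.03 and −0.27 without uninjured replicates 1 and 2, and −0.57 and 1.70 without day 3 replicates 1 and 2. Npas2 stood at 169 and 36.1 CPM against 157 and 129.5 CPM, with a log2 fold change of 0.64 (SE 0.63) that was 1.94 without uninjured replicate 1 and −0.30 without uninjured replicate 2. Clock was steady within groups, at 147 and 149 CPM in uninjured tissue and 191 and 197 CPM at day 3. It was higher in 2 of 2 day 3 libraries, by a log2 fold change of 0.38 (SE 0.32), which did not pass the test (edgeR's quasi-likelihood test, adjusted p 0.565).

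In endothelial-like nuclei Tef fell as well. It stood at 274 CPM (226 to 329) and 259 CPM (231 to 289.5) in uninjured tissue and at 21.6 CPM (2.62 to 78.2) and 67.9 CPM (47.0 to 94.8) at day 3, where the first of these rested on 2 UMIs from 39 nuclei. The day 3 intervals lay below the uninjured ones. The log2 fold change was −2.41 (SE 0.39, edgeR's quasi-likelihood test, adjusted p 0.0236). Without day 3 replicate 2 it was −3.61 with an adjusted p of 0.0531 in edgeR's test. Of the 8 members tested 1 was called lower, where 1.76% of 6862 genes were, and 0 higher, where 1.54% were. In edgeR 4 of 8 had an unadjusted p under 0.05, where 17.1% of all genes did. DESeq2 called 1, Tef, where it called 3.42% of all genes. Npas2 and Dbp did not pass the filter on low counts.

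The other endothelial-like values with an unadjusted p under 0.05 all lay below 0 in log2 fold change. Nr1d1 stood at 47.6 and 50.3 CPM in uninjured tissue and 0 CPM (0 to 39.9) and 14.0 CPM at day 3, with a log2 fold change of −2.27 (SE 0.70, edgeR's quasi-likelihood test, adjusted p 0.133). Per1 stood at 88.0 and 41.1 against 32.5 and 7.98 CPM (log2 fold change −2.35), and Per2 at 23.8 and 37.7 against 10.8 and 7.98 CPM (−2.00). Each of these 3 repressors was lower in both day 3 libraries, with adjusted p above 0.05. Day 3 replicate 1 held 92427 UMIs in these nuclei, where 1 UMI was 10.8 CPM. Its Per2 value thus rested on 1 UMI and its Per1 value on few. Intervals are not given here for Per1 and Per2, so their lower values are not shown to exceed counting error. Clock, Per3, Arntl and Cry1 had log2 fold changes of 0.23, −0.83, 0.00 and −0.06, and the last was 0.07 when scaled by library totals. Clock was at −0.12 and Cry1 at 0.56 without day 3 replicate 2, Per3 was at 0.58 without uninjured replicate 2, and Arntl ran from −0.99 without day 3 replicate 1 to 1.14 without day 3 replicate 2. Without uninjured replicate 2, when Npas2 was also tested, edgeR called 3 of 9 members (Npas2, Per1 and Tef), where 4.73% of 7615 genes were called.

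In myogenic-like nuclei the values of Nr1d1 were lower at day 3 by about as much as in the other populations, but no member passed the test. Nr1d1 stood at 71.9 and 42.3 CPM in uninjured tissue and 14.3 and 8.73 CPM at day 3, so the groups did not overlap. Its log2 fold change was −2.43 (SE 0.56, edgeR's quasi-likelihood test, adjusted p 0.0659). Tef stood at 169.6 and 358 CPM against 120.3 and 171 CPM, and these groups overlapped. The count called by edgeR was 0 of 10, where 3.51% of 9755 genes were. In edgeR 4 of 10 had an unadjusted p under 0.05, where 20.2% of all genes did. DESeq2 called 1, Nr1d1, where it called 7.18% of all genes.

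The 4 myogenic-like values with an unadjusted p under 0.05 were those of Nr1d1, Dbp, Tef and Cry1. Dbp had a log2 fold change of −2.52 (SE 0.99), from 5.53 and 113 CPM to 7.15 and 17.5 CPM, and it was 0.89 without uninjured replicate 2. Tef had −1.04 (SE 0.39, edgeR's quasi-likelihood test, adjusted p 0.195) and Cry1 −1.04 (SE 0.40, adjusted p 0.200). Npas2, at 31.3 and 17.2 CPM against 34.5 and 66.0 CPM, had 0.91, and Per3, Arntl, Per2, Per1 and Clock had −1.01, −0.80, −0.58, −0.48 and 0.27. One library decided the sign of several of these: without uninjured replicate 1 Arntl was at 1.09, without uninjured replicate 2 Per2, Per3 and Clock were at 1.302, 0.45 and −0.35, and without day 3 replicate 2 Per1 was at 0.04. Without day 3 replicate 1 edgeR called Arntl, Nr1d1 and Dbp, in a fit that called a larger share of all genes than that with all libraries. Without uninjured replicate 1 it called Dbp, in a fit that called a smaller share.

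Over the 3 populations, the members' median log2 fold change was −0.72 in stromal (10 tested), −1.41 in endothelial-like (8 tested) and −0.90 in myogenic-like nuclei (10 tested), against 0.05, −0.01 and 0.01 over all genes tested. Scaling by library totals moved the median over all genes to 0.09, 0.12 and 0.20. Of all genes called by edgeR, 53.3% were lower in endothelial-like and 48.2% in myogenic-like nuclei, and 40.2 and 35.4% with library totals. An exact permutation test of 2 against 2 libraries cannot go below a p of 0.3333.

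Other genes of the clock gave similar counts at day 3. In stromal nuclei 14 of 16 passed the filter on low counts, and edgeR called 3 lower and 1 higher. Hlf, the third PAR bZIP factor beside Dbp and Tef, stood at 95.4 and 133 CPM in uninjured tissue and 11.5 and 9.96 CPM at day 3 (log2 fold change −3.53, SE 0.47, edgeR's quasi-likelihood test, adjusted p 0.00372). Nr1d2, which encodes the second REV-ERB protein, stood at 199 and 335 against 57.7 and 120.6 CPM (−1.63, edgeR adjusted p 0.0312). Rorb, a nuclear receptor of the ROR family, stood at 73.7 and 129 against 11.5 and 11.1 CPM (−3.28). Nfil3, which binds the sites of the PAR bZIP factors as a repressor, stood at 0 and 5.70 CPM against 62.3 and 31.5 CPM, and its fitted log2 fold change was 3.30 (SE 0.82, edgeR's quasi-likelihood test, adjusted p 0.0352). In all 4 the day 3 libraries stood on one side of the uninjured ones. Of these 4, edgeR called Hlf alone without uninjured replicate 2, Rorb and Hlf without day 3 replicate 1, and 3 (not Nfil3) without uninjured replicate 1; Nr1d2 was also not called at resolution 0.8 or with library totals, and in fibroblast-like nuclei Hlf alone was. In endothelial-like nuclei edgeR called 2 of 8 tested, Hlf and Rora, both lower; Hlf stood at 52.4 and 93.0 CPM against 0 and 2.00 CPM. With either day 3 library left out edgeR called neither Hlf nor Rora, in fits that called a far smaller share of all genes than that with all libraries. Without uninjured replicate 2, or with library totals, it called Hlf alone. In myogenic-like nuclei edgeR called 0 of 14 tested, with 4 at an unadjusted p under 0.05, and DESeq2 called 2, Rora and Usp2.

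Genes that glucocorticoids, known to reset the clock, induce were also among those called at day 3, as were immediate-early genes. Of 8 glucocorticoid-induced genes tested in stromal nuclei, edgeR called Tsc22d3 (−2.07), Zbtb16 (−2.60) and Klf9 (−1.62) lower and Sgk1 (2.28) higher in log2 fold change; DESeq2 called 3, without Zbtb16. Without uninjured replicate 1, and again without day 3 replicate 2, edgeR called Sgk1 alone, and without uninjured replicate 2 Tsc22d3 and Sgk1. It also called Sgk1 alone in fibroblast-like nuclei. Zbtb16 was not called with doublets removed, nor Tsc22d3 at resolution 0.8. Klf9 stood at 229.8 and 208 CPM in uninjured tissue and 83.0 and 61.4 CPM at day 3. Of 6 immediate-early genes tested 1 was called, Junb, at 13.01 and 22.1 CPM against 99.2 and 174 CPM (log2 fold change 2.77). In endothelial-like nuclei edgeR called Zbtb16 and Klf9 lower (2 of 7 tested; 0 by DESeq2 and 0 without day 3 replicate 2) and 0 of 6 immediate-early genes, with 0 at an unadjusted p under 0.05 and 0 by DESeq2. In myogenic-like nuclei 0 of 8 glucocorticoid-induced genes passed by edgeR, with 2 at an unadjusted p under 0.05 and 0 by DESeq2, and 2 of 6 immediate-early genes did, Junb and Nr4a1 (Junb alone without uninjured replicate 1, Nr4a1 alone without uninjured replicate 2, and neither with limits of 5% for mitochondrial and none for ribosomal UMIs). The part of either list in the clock gene levels was not tested.

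Muscle and macrophage RNA also differed between groups within these sums. The 6 muscle markers summed to 459.6 and 649 CPM in uninjured stromal nuclei and 304 and 347 CPM at day 3, led by Ttn, with 1 marker at 0 in day 3 replicate 1. The 5 macrophage markers summed to 4.34 and 10.1 CPM in uninjured and 148 and 325 CPM in day 3 stromal nuclei. They were led by Ptprc in day 3 replicate 2 and by Mrc1 in replicate 1, and 4 of 5 were at 0 in uninjured replicate 1. Macrophage-like nuclei carried Tef at 56.8 CPM, Nr1d1 at 16.2 CPM and Arntl at 178 CPM in uninjured replicate 2. In endothelial-like nuclei the muscle markers summed to 466 and 619 CPM in uninjured tissue and 1017 and 373 CPM at day 3, and the macrophage markers to 2.38 and 32.7 against 97.4 and 188 CPM. In myogenic-like nuclei the muscle markers summed to 56657 and 61600.2 CPM against 23952 and 23647 CPM, and the macrophage markers to 20.3 and 22.6 against 44.2 and 274 CPM. The part of this RNA in the members' values was not tested.

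Whether the day 3 difference itself varied between stromal, endothelial-like and myogenic-like nuclei was tested with a model that gave each library its own term. Tef came nearest to such a difference: its fitted log2 fold change, relative to the mean of the populations, was −0.35 in stromal, −0.58 in endothelial-like and 0.93 in myogenic-like nuclei. That difference did not pass the test (edgeR's quasi-likelihood F test, adjusted p 0.0723). The count of members called was 0 of 10 by edgeR, where 9.35% of 11450 genes were called; 4 of 10 had an unadjusted p under 0.05, where 20.2% of all genes did, and DESeq2 was not run for this model. So the call of Tef in stromal and endothelial-like nuclei and its miss in myogenic-like nuclei are not shown to differ. Nr1d1 had the deviations −0.27, 0.30 and −0.03 (edgeR's F test, adjusted p 0.949) and Dbp −0.04, −0.01 and 0.05 (adjusted p 1.00).

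The other 3 members with an unadjusted p under 0.05 were Npas2, Arntl and Cry1. Npas2 had deviations of 0.90, −1.74 and 0.84 in stromal, endothelial-like and myogenic-like nuclei (edgeR's F test, adjusted p 0.174). Arntl had 0.86, −0.25 and −0.61 (edgeR's F test, adjusted p 0.194) and Cry1 1.08, −0.07 and −1.004 (adjusted p 0.153). Without uninjured replicate 2 edgeR called Npas2 and Tef, in a fit that called about the same share of all genes as that with all libraries. Tef was also called when scaled by library totals (edgeR's F test, adjusted p 0.0292) and with no filter on low counts (adjusted p 0.0257). In those 2 settings 9.91 and 6.04% of all genes were called. Its adjusted p in edgeR's test ran up to 1.00 over the other alternatives. Per1, Per2, Per3 and Clock had adjusted p of 0.349, 0.589, 0.780 and 0.980 by edgeR. Of the 16 other clock genes 0 were called by edgeR, and 0 had an unadjusted p under 0.05; without day 3 replicate 1 Hlf was called. Of the 8 glucocorticoid-induced genes, 3 were called, Tsc22d3, Zbtb16 and Sgk1, and 0 of these 3 without day 3 replicate 2.

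The shift of each member was next divided into what stromal, endothelial-like and myogenic-like nuclei of a library shared and what each had alone, on the scale of log2(CPM + 5). The shared shift is the mean over the 3 populations of a time point minus the uninjured mean. Nr1d1 had a shared shift of −2.20 at day 3, −1.87 at day 5 and −2.18 at day 7, and Tef −1.86, −2.20 and −2.08. No test was run on these shifts. Days 5 and 7 had 1 library each, and all 3 time points were set against the same uninjured libraries.

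Of the 9 members with a mean of at least 20 CPM, which left out Dbp at 17.9 CPM, Per3, Nr1d1 and Tef had a shared shift of 2-fold or more lower at day 3 (3 of 9, where 5.93% of 7087 genes did), and 0 of 9 were higher (7.70% of genes). Nr1d1 and Per2 reached that mean only through their uninjured values, so their part in the counts of members lower was partly set by this limit. The day 3 count rested on 1 library for Per3: its shared shift of −1.52 was 0.13 without day 3 replicate 1 and −3.17 without replicate 2, an alternative chosen after seeing the data. Without replicate 1 the 3 members lower were Per1, Nr1d1 and Tef, and without replicate 2 they were Per3, Nr1d1 and Tef, with Arntl higher. The share over all genes is given for the full set of libraries alone, so these lists cannot be set against it. Nr1d1 alone was lower by 2-fold or more in each population with all libraries (1 of 9, against 1.33%). At day 5 Per1, Per2, Per3, Nr1d1 and Tef were lower (5 of 9, against 5.47%), Arntl and Npas2 were higher (2 of 9, against 10.2%), and Per1 was lower in each population (1 of 9, against 1.54%). At day 7 the same 5 were lower (5 of 9, against 8.34%), Npas2 was higher (1 of 9, against 7.53%), and Per1 and Nr1d1 were lower in each population (2 of 9, against 1.69%). The members' median shared shift was −0.70, −1.15 and −1.28 at days 3, 5 and 7, against 0.10, 0.14 and 0.00 over all genes. The 9 of 16 other clock genes with enough counts had medians of −0.55, −0.53 and −0.60, with 4, 3 and 2 of them lower by 2-fold or more and 0 higher. Hlf was in each of these counts of genes lower and reached the mean of 20 CPM only through its uninjured values. Its place there was thus also partly set by the limit.

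Among the activators, the shifts of Clock lay close together over the 3 populations, at 0.38, 0.23 and 0.56 at day 3, at 0.88, 0.97 and 1.08 at day 5 and at 0.39, 0.43 and 0.77 at day 7, in stromal, endothelial-like and myogenic-like nuclei. The myogenic-like values are set against the mean of unlike uninjured libraries. Clock differed between them by −1.46 there, against 0.01 in stromal and 0.21 in endothelial-like nuclei. The likeness over populations thus rested on that mean. Arntl at day 5 stood at 2.05 and 1.09 in stromal and endothelial-like nuclei but at −0.05 in myogenic-like nuclei. Its shared shift of 1.03 was −0.04 without uninjured replicate 2 and 2.09 without uninjured replicate 1, so that 1 uninjured library decided its size. Its shared shifts of 0.32 at day 3 and 0.68 at day 7 were likewise −0.74 and −0.38 without uninjured replicate 2, and that of Npas2 at day 3 went from 0.03 to −0.92. Npas2 at day 5 was higher by 2.41 in stromal and 2.14 in myogenic-like nuclei and by 0.49 in endothelial-like nuclei. At day 3 its endothelial-like shift was −1.62, with 0.80 and 0.90 in the other populations. The uninjured endothelial-like libraries stood at 61.9 and 4.19 CPM for Npas2, a difference of −2.86. Day 5, at 29.8 CPM, lay between them, so the sign of 0.49 rested on uninjured replicate 2. The day 3 libraries, at 0 and 7.98 CPM, lay on either side of that replicate, so the size at day 3 rested on uninjured replicate 1. Leaving out uninjured replicate 2 took the count of members higher by 2-fold at day 5 from 2 to 0, and at day 7 from 1 to 0. Here too no share over all genes is given for the setting.

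Among the repressors, Per1 was lower by like amounts in each population at day 5, at −1.13, −1.13 and −1.18, and at day 7 it stood at −2.40, −3.71 and −2.74. The endothelial-like value at day 7 rested on 0 UMIs. For Per1 the uninjured endothelial-like libraries differed by −1.01, so the likeness at day 5 rested on their mean. Per2 and Per3 had larger shifts in stromal nuclei than in myogenic-like nuclei at day 5, at −2.02 against −0.32 for Per2 and −2.66 against −0.75 for Per3. In myogenic-like nuclei the uninjured libraries differed by 2.02 for Per2 and 2.03 for Per3. Day 5 lay between those libraries for both genes, so the sign of the myogenic-like shifts rested on uninjured replicate 2. For Per3 the gene list moved with the time point, as given above. Nr1d1 at day 5 stood at −2.57 in stromal, −2.85 in endothelial-like and −0.18 in myogenic-like nuclei, a range of 2.67. At day 3 the range was 0.58. Cry1 had shared shifts of 0.02, 0.15 and 0.04 and population values between −0.76 and 0.74. Whether a population's shift differed from the others was tested at day 3 only.

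The shifts of both output genes were below 0 in all 3 populations at each time, although in myogenic-like nuclei the day 3 libraries overlapped the uninjured ones for both genes. For Dbp in myogenic-like nuclei this sign rested on uninjured replicate 2 at days 3 and 5: day 5 stood at 7.03 CPM, above the 5.53 CPM of uninjured replicate 1, and without replicate 2 the shifts were 0.65 and 0.19. Dbp, whose mean was under 20 CPM, had shared shifts of −1.62, −2.10 and −2.37, and its population values of −2.37, −2.37 and −2.38 at day 7 rested on 3.11, 0 and 1.76 CPM, all under the 5 CPM added, so their likeness shows no common size. Without uninjured replicate 2 those shared shifts were −0.45, −0.94 and −1.21. Tef had a smaller shift in myogenic-like nuclei, at −0.76, −0.71 and −0.79 for days 3, 5 and 7, against −2.21, −2.82 and −2.21 in stromal and −2.62, −3.07 and −3.24 in endothelial-like nuclei. The uninjured myogenic-like libraries differed by 1.06 for Tef, so the size of its shifts there depended strongly on which of them was used. At day 3 the difference between populations did not pass the test (edgeR's quasi-likelihood F test, adjusted p 0.0723). Leaving out myogenic-like nuclei took the count of members lower by 2-fold at day 3 from 3 to 5, and leaving out uninjured replicate 1 or 2 took it to 4 or 2. The count of 5 lower at day 5 was 4 or 3 with those libraries left out and 3 with 20 CPM added, and the 5 lower at day 7 were 5 or 4. No share over all genes is given for these settings, so a move of the members cannot be told from one of all genes.

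**Figure D2:**
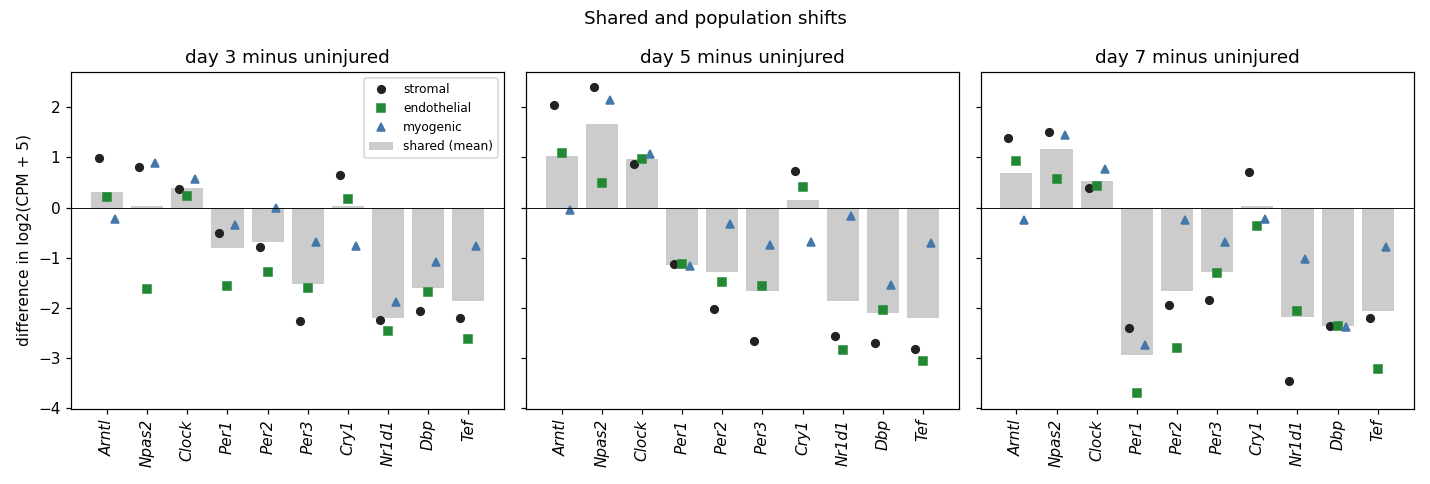
Difference in log2(CPM + 5) between day 3, day 5 or day 7 and the mean of the uninjured libraries (vertical axis) for the 10 clock genes (horizontal axis). Bars are the mean over the 3 populations and points the populations; day 3 is a mean of 2 libraries and days 5 and 7 are 1 library each. Nr1d1, Dbp and Tef lie below 0 in every population at each time, and Tef lies between −0.71 and −0.79 in myogenic-like nuclei.

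Dividing each member's sum of squares over 6 libraries and 3 populations gave a library share, common to the populations, a population share, common to the libraries, and a remainder. Libraries held the largest share for Dbp (87.8%), Per1 (86.9%), Per3 (83.2%), Arntl (70.5%), Nr1d1 (65.5%), Tef (64.9%), Clock (63.3%) and Per2 (55.4%). For Npas2 the population share was the largest, at 57.6% against 29.5% for libraries, and for Cry1 the remainder was, at 82.6%. Of the 9 members with a mean of at least 20 CPM, 7 (77.8%) had libraries as the largest share, against 30.7% of 7087 genes and 33.3% of the 9 other clock genes. The members' median library share was 64.9%, against 28.0% over all genes and 33.9% over the other clock genes. Nr1d1 and Per2, and Hlf of the other clock genes, reached the mean of 20 CPM only through their uninjured values. Their places in these counts were thus partly set by that limit. Differences between time points and between replicates both enter the library share, and the hour of collection is not known for either. For Per3 the gene list also differed between libraries, and several sums of Dbp lay under the 5 CPM added. Their part in these shares was not tested.

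**Figure D3:**
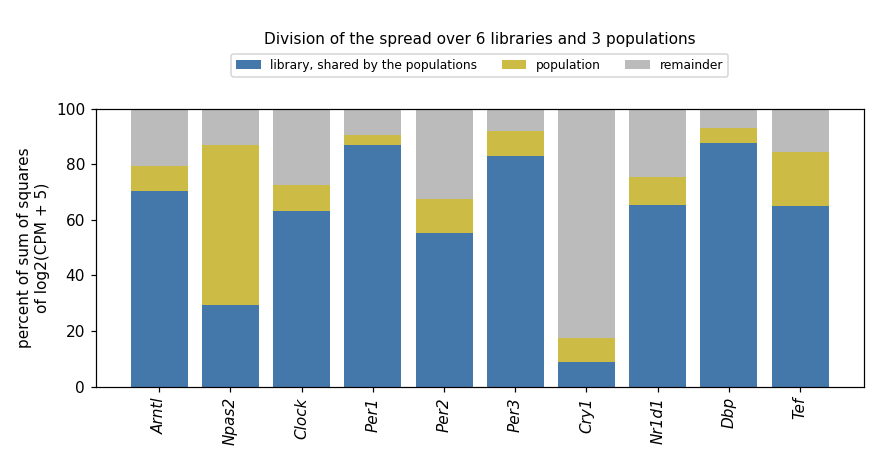
Share of the sum of squares of log2(CPM + 5) (vertical axis, percent) that lay between libraries, between populations and in the remainder, for the 10 clock genes (horizontal axis), over 6 libraries and the stromal, endothelial-like and myogenic-like nuclei. The library share is the largest for 8 of the 10 genes; the population share is the largest for Npas2 and the remainder for Cry1.

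In stromal nuclei at days 5 and 7, PER-family genes, Nr1d1 and Tef stood below both uninjured libraries, and Npas2 stood above both. Nr1d1 stood at 8.95 CPM (6.66 to 11.8) at day 5 and 2.49 CPM (0.678 to 6.37) at day 7, which was 5.33 and 14.0 times lower than uninjured replicates 1 and 2 at day 5 and 19.2 and 50.4 times lower at day 7. Tef stood at 35.6 CPM (30.9 to 40.9) and 57.2 CPM (46.1 to 70.2), with folds of 6.94 and 9.06 lower at day 5 and 4.32 and 5.64 lower at day 7. With 1 library at each time there was no test, and a fold had to pass 2 against both uninjured libraries to be counted.

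By that rule 5 of 9 members with enough counts were lower at day 5 (Per1, Per2, Per3, Nr1d1 and Tef), where 9.52% of 7061 genes were, and the same 5 were lower at day 7, where 11.9% were. Nr1d1 and Per2 reached the limit of 20 CPM, a mean over all libraries, only through their uninjured values. Their place in the count of members lower was thus partly set by that limit. Per1 stood at 23.5 and 6.84 CPM at days 5 and 7, against 65.0 and 50.6 CPM in uninjured tissue. Per2 stood at 7.37 and 8.08 CPM, against 47.7 and 43.0 CPM. Both were lower at each time than either uninjured library by more than the spread between those libraries. Dbp, under the limit of 20 CPM, stood at 1.40 CPM (0.606 to 2.77) and 3.11 CPM (1.01 to 7.26), against 17.3 and 74.1 CPM. Uninjured replicate 1, counted with Cell Ranger 6.0.0 like days 5 and 7, listed 31055 genes against 32287 and 32285 there, so no uninjured library matched them in both, and the part of either in these folds was not tested.

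Npas2 was the member called higher, at day 5 only (1 of 9, where 10.0% of genes were), and 0 of 9 were higher at day 7, where 7.17% of genes were. It stood at 443 CPM (426 to 461) at day 5 and 235 CPM (212 to 260) at day 7, with folds of 2.62 and 12.3 over uninjured replicates 1 and 2 at day 5. At a fold of 1.5 there were 3 such members (Arntl, Npas2 and Clock), where 17.7% of genes were higher, and at a fold of 3 there were 0, where 5.03% were. Arntl stood at 224 CPM (212 to 237) and 139.9 CPM (122 to 159.5), which at day 5 was 1.52 and 14.8 times uninjured replicates 1 and 2. Clock stood at 276 and 196 CPM, and Cry1 at 25.6 and 24.9 CPM. Among the other clock genes, 12 of 16 had enough counts. Nr1d2, Rorb and Hlf were lower and Nfil3 was higher at both days. Rorb and Hlf reached the limit of 20 CPM only through their uninjured values, and Nfil3 only through its values after fracture. The places of these genes here were thus partly set by that limit. The glucocorticoid-induced genes Fkbp5, Tsc22d3, Zbtb16, Klf9 and Errfi1 were also lower at both days, and 0 of that list were higher.

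Within single libraries, where all populations come from the same pool of mice, the members' levels were set in order over the populations. Macrophage-like nuclei carried the highest Arntl of 12 populations in uninjured replicate 2, at 178 CPM (129.7 to 239.6), where the second, osteoblast-like nuclei, stood at 77.8 CPM (16.0 to 227) and the median population at 25.3 CPM. Counting error overlapped that of 2 other populations. In uninjured replicate 1 the highest of 6 populations was myogenic-like nuclei, at 238 CPM (199 to 283), overlapping 3 of the other 5. In the macrophage-like nuclei of uninjured replicate 2 Clock stood at 279.9 CPM (218 to 354). In the fracture libraries macrophage-like nuclei were not the highest in Arntl, at 107 and 35.9 CPM at day 3, 130.4 CPM at day 5 and 86.3 CPM at day 7, and the highest were fibroblast-like (193.6 CPM), lymphocyte-like (92.9 CPM), fibrogenic-like (283 CPM) and fibrogenic-like nuclei (187 CPM) in that order of libraries. Their intervals overlapped those of 3 of 4, 3 of 7, 2 of 12 and 9 of 11 other populations.

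Npas2 was highest in progenitor-like, fibroblast-like, fibrogenic-like or tendon-like nuclei in each of the 6 libraries. The highest populations were those like stem and progenitor cells in uninjured replicate 1 (340.5 CPM) and at day 7 (439 CPM), tendon-like nuclei in uninjured replicate 2 (49.4 CPM) and at day 5 (625 CPM), and fibroblast-like and fibrogenic-like nuclei at day 3 (186 and 149 CPM). Macrophage-like nuclei stood at 0, 4.13, 2.45, 19.6 and 69.0 CPM from uninjured replicate 2 to day 7. The highest value overlapped 1 other population in uninjured replicate 1, in each day 3 library and at day 5, 5 of 11 at day 7, and 9 of 11 in uninjured replicate 2, where the order is thus hardly resolved. At day 5 tendon-like (539 to 722) and fibroblast-like nuclei (569 CPM, 527.5 to 613) did not differ beyond counting error.

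Tef was next ordered over the populations of each library. Myogenic-like nuclei carried the highest Tef in each of the 4 fracture libraries, at 120.3, 171, 149 and 141 CPM for day 3 replicates 1 and 2, day 5 and day 7. In uninjured tissue the highest were fibroblast-like nuclei in replicate 1 (312 CPM) and fibrogenic-like nuclei in replicate 2 (393 CPM, 325.5 to 469), but in replicate 2 this interval overlapped those of 4 of the other 11 populations and held the myogenic-like value of 358 CPM. In day 3 replicate 1 the interval of the myogenic-like value (104 to 139) overlapped that of 0 of the other 4 populations, and at day 7 it overlapped that of 6 of 11. Nr1d1 was highest in tendon-like (227 CPM) and fibrogenic-like nuclei (203 CPM) in uninjured replicate 2. Dbp was highest in adipocyte-like nuclei there, at 132 CPM (89.0 to 188), with 9 of the other 11 populations inside counting error. Those fibrogenic-like nuclei, 128 in number, came mostly from another cluster than the fibrogenic-like nuclei after fracture.

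Chondrocyte-like nuclei were present at day 5 (136) and day 7 (232), and the study placed regulons of Arntl and Npas2 at the transition to chondrocytes and that of Clock in differentiated chondrocytes. These nuclei were divided by UMIs of Acan, the cartilage proteoglycan gene, after each was thinned to 500 UMIs. Arntl stood at 71.8 CPM (47.3 to 104), 105.7 CPM (71.3 to 151) and 98.7 CPM (51.0 to 172) at 0, 1 to 2 and at least 3 Acan UMIs at day 5. At day 7 it stood at 79.8 CPM (47.3 to 126), 100.6 CPM (64.5 to 149.7) and 132 CPM (60.2 to 250.1). All 3 intervals overlapped on each day, so no difference in Arntl was detectable at this depth. Npas2 at day 5 was lower in the middle bin, at 119.8 CPM (83.0 to 167), than at 0 Acan UMIs, at 239 CPM (192.5 to 294). At 3 or more it stood at 238.6 CPM (159.8 to 343), an interval that overlapped those of both other bins. At day 7 it stood at 97.6, 100.6 and 73.2 CPM. Clock stood at 407, 342 and 535 CPM at day 5 and 248, 247 and 351 CPM at day 7, and all 3 intervals overlapped on each day. The bin of at least 3 Acan UMIs held 14 nuclei at day 5 and 26 at day 7, so the nuclei were also thinned to 1000 UMIs. This left out 15 nuclei at day 5 and 53 at day 7. Arntl then stood at 112, 95.5 and 73.4 CPM at 0, 1 to 2 and at least 3 Acan UMIs at day 5, and at 47.0, 109.9 and 114 CPM at day 7. The bin without Acan was thus the lowest in Arntl at day 5 at the smaller depth and the highest at the larger one, with overlapping intervals at both. Depth and the nuclei used changed together between these. Npas2 in the middle bin at day 5 was then at 169.7 CPM (125 to 225), which overlapped the bin at 0 Acan UMIs (178 to 340). At day 7 Npas2 was then at 103, 74.9 and 130 CPM, with overlapping intervals. The bin of at least 3 Acan UMIs thus went from the lowest in Npas2 to the highest.

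The genes most like Arntl and Dbp were sought over 55 sums of library and population, which share libraries and are not independent, after each population's own mean was taken off. Npas2 was the gene most like Arntl of 4097 with a mean of at least 50 CPM, with a correlation of 0.67, followed by Xist (0.66), Ip6k1 (0.64), Pik3r3 (0.62) and Glcci1 (0.61). The least like Arntl were the mitochondrial genes mt-Nd2 (−0.77) and mt-Co2 (−0.75). For Dbp the most alike were Acta1 (0.86), mt-Nd3 (0.84), mt-Nd4 (0.82), Car3 (0.82) and mt-Nd2 (0.81), and the least alike included Wsb1 (−0.83), Xist (−0.82) and Adnp (−0.82). Stromal Adnp stood at 0, 5.70 and 5.53 CPM in the 3 libraries with 31055 listed genes and at 203, 184 and 226 CPM in the other 3. Among the members themselves, Arntl and Per3 had a correlation of −0.74, Arntl and Dbp −0.71, Per3 and Dbp 0.79, Nr1d1 and Dbp 0.77, Dbp and Tef 0.75, and Cry1 and Dbp 0.01. These values give the order of likeness alone, and gene list, mitochondrial share, sex of the mice and time were not separated in them.

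The promoters of the members were read for motifs of the clock. RefSeq promoters from 250 bases before to 50 bases after each start were found for 9 of 10 members (not Per2), 14 promoters in all, on build GRCm38.p6, and matches on both strands were counted. The E-box CACGTG, the letters bound by BMAL1 with CLOCK, was in promoters of Per1, Cry1 and Tef and in 7.15% of all 32851 promoters. The variant CACGTT was in those of Cry1 and Nr1d1 (4.68% of all). The D-box letters TTATGTAA or TTACGTAA, bound by DBP, TEF and HLF, were in that of Per3 (1.06%). The ROR element TAGGTCA, to which REV-ERB proteins bind, was in that of Arntl, 30 bases after its second start (2.61%). The cAMP response element TGACGTCA was in 0 members' promoters and in 1.79% of all. No motif searched contains another, though both E-box forms share the letters CACGT. Of the 16 other clock genes, 12 had promoters, and the E-box was in Bhlhe41 and Ciart, the variant in Cry2 and Rorb, the D-box in Timeless, the ROR element in Nfil3 and the cAMP response element in Hlf. A match describes letters in this window and nothing about binding.

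The 250 bases before the starts of Nr1d1 and Tef, the members that fell at day 3, are shown with the E-box or its variant in capitals, and a stretch of 30 bases downstream of the second start of Arntl with the ROR element in capitals. They are read 5′ to 3′ on the strand of the gene: Nr1d1 at chr11:98775378-98775627 (minus strand), Tef at chr15:81802423-81802672 and chr15:81811164-81811413 (plus strand) and Arntl at chr7:113207530-113207559 (plus strand). The match in Nr1d1 began 28 bases before the start, and those in Tef 127 and 138 bases before its first and second starts.
Nr1d1: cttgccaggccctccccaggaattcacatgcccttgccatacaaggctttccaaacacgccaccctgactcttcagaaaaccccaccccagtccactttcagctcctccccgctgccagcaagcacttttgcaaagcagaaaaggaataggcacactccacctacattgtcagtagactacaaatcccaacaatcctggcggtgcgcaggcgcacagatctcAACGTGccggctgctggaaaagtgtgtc
Tef, first start: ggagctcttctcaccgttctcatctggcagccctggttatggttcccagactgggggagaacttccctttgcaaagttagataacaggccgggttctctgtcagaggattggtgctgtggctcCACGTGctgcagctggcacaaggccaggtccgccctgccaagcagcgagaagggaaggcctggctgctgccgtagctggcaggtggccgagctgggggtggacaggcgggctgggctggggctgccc
Tef, second start: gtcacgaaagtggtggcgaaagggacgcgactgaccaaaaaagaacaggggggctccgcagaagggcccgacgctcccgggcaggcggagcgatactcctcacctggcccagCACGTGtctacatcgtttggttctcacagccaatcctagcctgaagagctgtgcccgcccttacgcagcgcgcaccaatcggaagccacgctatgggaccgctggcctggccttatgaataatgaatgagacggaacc
Arntl, second start: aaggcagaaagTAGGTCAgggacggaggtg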

How the data were processed

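The members and gene lists were chosen with earlier results of these data known. The authors deposited raw UMI counts per gene and nucleus, made with Cell Ranger 6.0.0 or 7.1.0 per the file headers and mapped on mm10 per the labels. Kept nuclei had between 200 and 5000 genes and less than 2% of UMIs from mitochondrial and 1.5% from ribosomal genes; Scrublet in scanpy 1.11.5 (doublet rate 6%) called 50 doublets, which were kept in. Each library was first clustered alone (2000 variable genes, 20 components, 15 neighbours, Leiden resolution 1), and clusters in which at least 3 of 6 muscle markers were detected in at least 50% of nuclei were named myogenic-like and set aside (159, 240, 371, 368, 252 and 241 nuclei from uninjured replicate 1 to day 7). Seurat 5.3.0 integrated the other nuclei on 1988 variable genes without clock and list genes (20 dimensions) and clustered at resolution 1.3. A cluster took the name with the highest mean log2 ratio of the design's markers against their median over clusters (10 CPM added). At least 3 of these markers had to be detected in at least 10% of nuclei. The least score of 2 was chosen after seeing the data, and so was leaving unnamed clusters led by Flt3 or Pax7. Left unnamed were a cluster led by Flt3 (106 nuclei) and another with under 3 detected markers or a low score (102 nuclei).

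UMIs were summed per library and population. Populations with at least 20 nuclei in each uninjured and day 3 library were tested; macrophage-like (11 at least) and pericyte/SMC-like nuclei (4 at least) were not run. edgeR 4.0.16 (limma 3.58.1, R 4.3.3) fitted all genes with filterByExpr and TMM by quasi-likelihood, with Benjamini-Hochberg adjustment over all genes tested and a threshold of 0.05, and DESeq2 1.42.0 repeated it. SE is the size of the log2 fold change divided by the square root of F. The interaction model held library, population and population by day 3 (4 residual degrees of freedom). Shifts used 5 CPM added, and members needed a mean of 20 CPM for counts of shifts and folds; likeness is Pearson's correlation of log2(CPM + 5), less each population's mean, over sums of at least 20 nuclei. Both fits were tested on simulated data. The rule for named genes took all members, other clock genes called in any population or in the interaction, genes of the glucocorticoid-induced and immediate-early lists called in stromal nuclei, and the 5 genes most like Arntl and Dbp. Other genes of these lists (small counts called elsewhere), the genes least like Arntl and Dbp, Camta1, Thra and Uty were named after their values were seen. Alternatives were DESeq2, no count filter, library totals, doublets removed, limits of 5% for mitochondrial and none for ribosomal UMIs (changed together), resolution 0.8, each library left out, 1 or 20 CPM added, at least 50 nuclei, myogenic-like nuclei left out and other folds and depths; fibroblast-like nuclei in place of stromal nuclei in the interaction and shared shifts, and day 3 libraries left out of the shared shifts, were chosen after seeing the data. Other software was matplotlib 3.10.9, scikit-learn 1.9.0, pandas 2.3.3, scipy 1.17.1, numpy 2.4.6 and anndata 0.12.19 under Python 3.11.15; gene positions came from GENCODE mouse release 21.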

Additional observations from a re-analysis of the deposited data

Results flagged for a closer look

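Genes of the glucocorticoid-induced and immediate-early lists had day 3 changes that differed between stromal, endothelial-like and myogenic-like nuclei by edgeR's quasi-likelihood F test. These were Tsc22d3 (adjusted p 0.0172), Zbtb16 (adjusted p 0.00815), Sgk1 (adjusted p 0.0126) and Egr1 (adjusted p 0.0351), where 9.35% of all genes were called. None of the 4 was called without day 3 replicate 2, with no library term or without myogenic-like nuclei; without uninjured replicate 1 Tsc22d3 was not called, and without uninjured replicate 2 Zbtb16 and Egr1 were not. On the log2 scale Tsc22d3 deviated from the mean of the populations by −0.79, −0.52 and 1.31 in that order, Zbtb16 by −0.60, −0.61 and 1.21, Sgk1 by 1.35, −0.53 and −0.82, and Egr1 by −0.52, −1.85 and 2.37.

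Cry1 lay on opposite sides of both uninjured libraries in different populations. At day 5 it stood at 25.6 CPM in stromal and 31.0 CPM in endothelial-like nuclei, above both uninjured libraries, and at 20.2 CPM in myogenic-like nuclei, below both. At day 7 it stood at 24.9 CPM in stromal nuclei, above both, and at 15.9 CPM in endothelial-like and 29.99 CPM in myogenic-like nuclei, below both. Counting intervals overlapped that of at least 1 uninjured library in every case, as in stromal nuclei at day 5 (21.6 to 30.1 against 7.04 to 50.6 in uninjured replicate 1) and endothelial-like nuclei at day 7 (1.92 to 57.3, from 2 UMIs). The values were thus not separated from both uninjured libraries beyond counting error, and the differences between populations were not tested.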

How the results depend on the processing

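Of 269 alternative values of the members' day 3 log2 fold changes, 230 kept direction and side of the threshold, 15 passed it newly, 4 no longer passed it and 20 changed sign. Endothelial-like and myogenic-like nuclei were the same at resolution 0.8 and are not counted there. Of 89 alternative interaction p-values, 85 kept their side and 4 passed newly. Of 230 alternative shared shifts, 193 moved by less than the replicate spread, 35 moved more, and 2 that were past 2-fold changed sign. Shifts of any size changed sign in 16, of which 7 left out an uninjured library, 4 a day 3 library and 5 neither. The 60 without an uninjured library could not move by more than that spread, which came from the same 2 libraries. Where no cause is named, the cause was not tested.

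With no filter on low counts, which tests more genes, the members called at day 3 were 4 in stromal, 3 in endothelial-like and 2 in myogenic-like nuclei, where 7.32, 3.95 and 7.22% of all genes were called. In the interaction 1 was called (6.04% of genes), and also 1 with library totals (9.91%). Resolution 0.8 and fibroblast-like nuclei alone each gave 1 in stromal nuclei, where 8.29 and 5.35% of genes were called, and DESeq2 gave 1 in myogenic-like nuclei (7.18%). Cry1 in endothelial-like nuclei was 0.074 with DESeq2, 0.075 with library totals and 0.14 with 5% mitochondrial and no ribosomal limit; Arntl there was −0.094 with no filter and −0.012 without doublets.

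With 20 CPM added, members with a shared shift past 2-fold were 3 lower and 1 higher at day 5 and 0 higher at day 7. Without myogenic-like nuclei 5 were lower at day 3 and 2 higher at day 7. At least 50 nuclei, and fibroblast-like in place of stromal nuclei, each gave 1 higher at day 5. These counts of shared shifts are given without a share over all genes in the same settings, and so cannot be set against one. In stromal nuclei at day 5, 3 members were higher at 1.5-fold and 0 at 3-fold. Thinned to 1000 UMIs, Arntl at 0 Acan UMIs stood at 112 CPM (day 5) and 47.0 CPM (day 7), and Npas2 at 1 to 2 Acan UMIs at 169.7 CPM (day 5).

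Leaving out 1 library could change which members were called at day 3, in each population and in the interaction. It also changed the share of all genes called. The lowest and highest values over these alternatives follow. Shared shifts past 2-fold ran from 0 to 1 higher at day 3, 3 to 4 lower and 0 to 3 higher at day 5, and 0 to 2 higher at day 7. No share over all genes is given for these shifts. Stromal log2 fold changes ran from −0.57 to 3.03 for Arntl, −0.30 to 1.94 for Npas2, −1.23 to 0.063 for Per1 and 0.054 to 1.55 for Cry1. Endothelial-like ones ran from −0.99 to 1.14 for Arntl, −8.17 to 0.58 for Per3, −0.12 to 0.35 for Clock and −0.36 to 0.56 for Cry1. Myogenic-like ones ran from −1.64 to 1.09 for Arntl, −0.35 to 1.2205 for Clock, −1.25 to 1.302 for Per2, −2.34 to 0.45 for Per3, −3.38 to 0.89 for Dbp and −1.18 to 0.040 for Per1. The shared shift of Arntl at day 5 ran from −0.036 to 2.09 and that of Per3 at day 3 from −3.17 to 0.13. A group left with 1 library was assumed to vary like the other.

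No paired analysis was possible because replicate numbers were given in accession order. Depth limited endothelial-like nuclei most: the least sum held 92427 UMIs, where 1 UMI was 10.8 CPM. The hour of collection was unknown for every library, so time after fracture and time of day cannot be told apart in any shift that the populations of a library share.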
